A study of Homo sapiens with 6 samples.

Results

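Solute carriers are the membrane proteins that move small molecules and ions down or against their gradients, and they were described here as an expressed gene family in PANC-1 cells treated with SOX9 siRNA. PANC-1 is a long-used cell line grown out of a human tumour of the pancreatic duct, and SOX9 is a transcription factor known from the duct cells and progenitors of the pancreas. Members were the genes whose symbol was exactly SLC, digits, the letter A and digits, and whose normalized count averaged at least 100. The table held 283 genes with such a symbol. Of these, 164 genes in 42 families had the required mean count and were members, out of 19830 genes in all. Members were thus chosen by their mean count, which is given here only as a description, while the fold change was not part of the rule. The other 119 genes of that symbol form lay under the minimum, 33 of them were tested by the authors, and 0 were called.

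Both RNA groups were PANC-1 cells grown in DMEM with serum and transfected with a lipid reagent. The treated group received 25 nM of a SOX9 siRNA and the comparison group 25 nM of a control siRNA. Cells from the wells were pooled and harvested after 48 hours, and 2 total RNA libraries were made per group. The cells were 1 line and both libraries of a group may share their cultures, so the authors' p-values reflect only how these libraries varied, and that variation may be technical. Further samples of the series, SOX9 chromatin immunoprecipitations from PANC-1 cells without siRNA, were not analysed here.

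The values were the authors' DESeq2 comparison, which lists for each gene a log2 fold change with standard error and p-values beside a mean normalized count, and holds none per library. The depth of single libraries is therefore unknown, and no value per library or standard deviation can be given. The mean count is not scaled to transcript length, so levels were not compared between genes. Which group is the numerator is not stated in the sources used here, and fold changes were read as SOX9 siRNA over control siRNA from the negative sign at SOX9. SOX9 itself stood at 55.9% of control (95% interval 39.2% to 79.8%) in the authors' deposited table with a DESeq2 adjusted p of 0.0643, so the targeted gene did not pass the threshold. Since its sign set the direction, SOX9 cannot also check the labels, and if the ratio were turned every fall given here would be a rise and every rise a fall. Of 8 duct and epithelial markers 6 had mean counts of at least 100, up to 203350 for KRT8, while CFTR stood at 1.83 in the authors' deposited table. Acinar, endocrine and endothelial markers had mean counts of at most 5.60, 2.95 and 3.87, leukocyte markers of at most 52.2 and fibroblast markers of at most 322. Of all these markers 1 was called, EPCAM, which fell by 1.76 on the log2 scale by DESeq2 in the authors' deposited table. The keratins KRT8, KRT18 and KRT19, the most counted of the same list, had positive log2 values of 0.55, 0.50 and 0.50 in the authors' deposited table, with DESeq2 adjusted p-values of 0.0786, 0.106 and 0.259. The part of these markers in the carriers' values was not tested. In bulk RNA, fewer cells of a kind and less RNA per cell cannot be told apart.

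Solute carriers set what a cell can take up, keep and release. At the plasma membrane they bring in amino acids, sugars, ions, metals and vitamins, some as exchangers and some driven by sodium or protons. Others act inside the cell, filling lysosomes and secretory vesicles, supplying nucleotide sugars to the Golgi, or linking the mitochondrial matrix with the cytosol. Pancreatic cancer cells are known for a high demand for amino acids and glucose, and normal duct cells for the bicarbonate they secrete.

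A total of 4 solute carriers fell after SOX9 siRNA and 0 rose at a DESeq2 adjusted p under 0.05. The genes that fell were SLC7A1, which imports arginine and lysine, SLC45A3, a proton-coupled sugar transporter family member known from prostate, SLC22A5, the carnitine importer, and SLC30A7, which loads zinc into the Golgi. They belong to 4 different substrate classes. The 4 calls were 2.44% of the 164 members, beside 2.03% called in either direction and 1.09% called lower over all 11888 tested genes with a mean count of at least 100, of which 0.942% were called higher. Over all 14063 tested genes 1.81% were called, 0.868% higher and 0.939% lower. The share of members called in either direction was thus near that of all genes. All 4 calls were falls, so that share was above the 1.09% called lower, and this difference was not tested. At an unadjusted p under 0.05 there were 16 higher and 21 lower members, together 22.6% of the members beside 12.5% of those 11888 genes and 11.1% of all tested genes.

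In the control group the mean level of SLC7A1 implied by its mean count and fold change was 4729 normalized counts, and in the SOX9 siRNA group it was 2240. The gene thus stood at 47.4% of control (95% interval 34.4% to 65.2%) in the authors' deposited table, with a DESeq2 adjusted p of 0.0017. Its product, the cationic amino acid transporter CAT1, is the main arginine importer of many cells. For SLC45A3 the implied levels were 661.1 in control and 237.8 in SOX9 siRNA, which is 36.0% of control (21.4% to 60.3%) in the authors' deposited table, with a DESeq2 adjusted p of 0.0123.

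SLC22A5 encodes OCTN2, which carries the carnitine needed to move fatty acids into mitochondria. Its implied levels were 626.0 in control and 329.5 in SOX9 siRNA, or 52.6% of control (36.7% to 75.6%) in the authors' deposited table, with a DESeq2 adjusted p of 0.0366. SLC30A7 had implied levels of 1827 and 974.6, or 53.3% of control (37.1% to 76.6%) in the authors' deposited table, with a DESeq2 adjusted p of 0.0417. These levels are group means, so whether single libraries of the groups overlapped is not known. The fall of SLC22A5 and SLC30A7 depended on the authors' filter on low counts: adjusted over every gene with a p-value, DESeq2 p-values gave 0.0515 and 0.0586. No member passed a test against a 1.5-fold change, in which 3 of all tested genes were called.

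**Figure D1:**
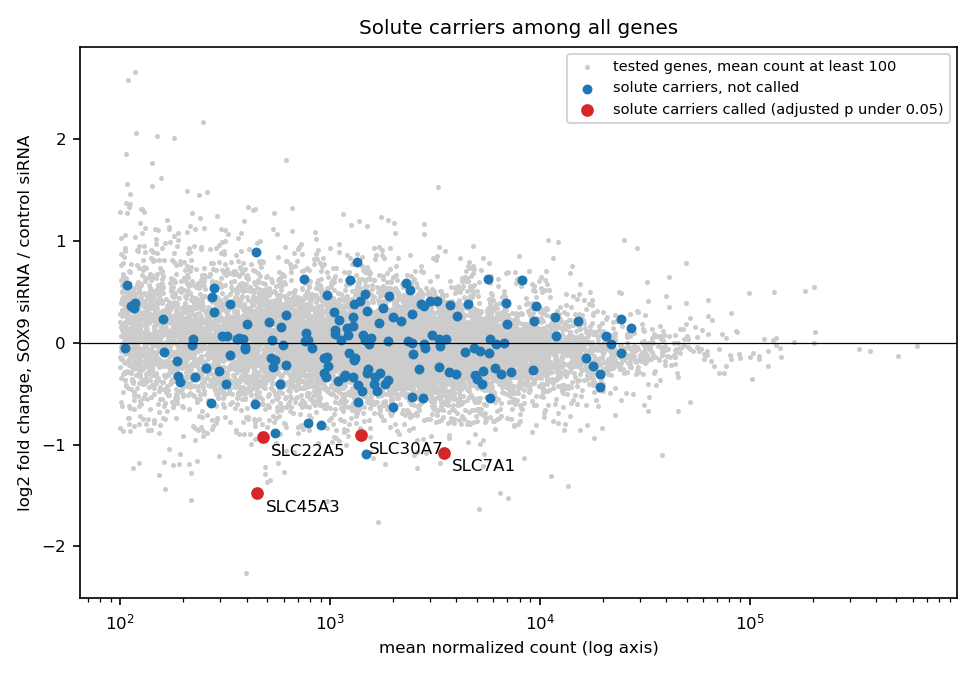
Log2 fold change, SOX9 siRNA over control siRNA, against mean normalized count (log axis) for the 11888 tested genes with a mean count of at least 100 (grey) and the 164 solute carriers (blue, or red where called). The 4 called carriers lie between -0.91 and -1.48, and the other members spread on both sides of 0.

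The sequences upstream of the 4 genes that fell are shown because these members moved in the same direction. They are the 250 bases before each annotated start, from RefSeq on GRCh38.p14, 5′ to 3′ on the strand of the gene. The windows are chr1:205680510-205680759 (minus strand) for SLC45A3, chr13:29595689-29595938 (minus strand) for SLC7A1, chr5:132369460-132369709 (plus strand) for SLC22A5 and chr1:100895840-100896089 (plus strand) for SLC30A7. Capitals mark matches to the motifs searched on both strands.
SLC45A3: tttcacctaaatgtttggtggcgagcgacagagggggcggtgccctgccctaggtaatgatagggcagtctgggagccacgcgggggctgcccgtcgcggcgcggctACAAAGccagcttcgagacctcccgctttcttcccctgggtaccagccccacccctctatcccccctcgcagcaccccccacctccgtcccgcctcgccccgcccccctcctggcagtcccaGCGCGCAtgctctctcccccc
SLC7A1: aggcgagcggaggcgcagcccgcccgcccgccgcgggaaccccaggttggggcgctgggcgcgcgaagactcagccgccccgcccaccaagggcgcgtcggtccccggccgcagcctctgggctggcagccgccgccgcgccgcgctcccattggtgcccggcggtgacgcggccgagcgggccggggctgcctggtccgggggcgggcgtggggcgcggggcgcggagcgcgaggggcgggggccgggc
SLC22A5: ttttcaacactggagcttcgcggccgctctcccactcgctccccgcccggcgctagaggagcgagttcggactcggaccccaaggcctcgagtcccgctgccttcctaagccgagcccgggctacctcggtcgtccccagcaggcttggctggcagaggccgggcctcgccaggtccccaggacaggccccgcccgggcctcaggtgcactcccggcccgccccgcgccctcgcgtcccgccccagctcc
SLC30A7: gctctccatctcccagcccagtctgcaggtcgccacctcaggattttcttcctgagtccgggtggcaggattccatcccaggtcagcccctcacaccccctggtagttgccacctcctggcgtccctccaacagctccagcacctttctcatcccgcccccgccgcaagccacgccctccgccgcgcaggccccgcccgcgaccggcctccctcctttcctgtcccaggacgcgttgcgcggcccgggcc
In the SLC45A3 window the capitals are a SOX core motif, ACAAAG, starting 143 bases before the start, and a metal response motif on the other strand starting 21 bases before it. The other windows held none of the motifs searched, and were 69.6% to 84.4% G and C. The metal response motif was searched only as TGCGCNC. The SLC22A5 window holds TGCACTC, a form with A in place of G that was not searched.

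The motifs searched were the SOX core motifs ACAAAG and ACAATG, the amino acid response motif TGATGNAA and the E-box CACGTG. The metal response motif was searched only in its TGCGCNC form, and no overlap among the motifs was removed. RefSeq windows were matched for 132 of the 164 members by symbol. Of these windows, 21 held either SOX core motif, or 15.9%, beside 21.4% of all 27305 windows in the table and 12.3% of the 8949 windows of tested genes with a mean count of at least 100. Besides SLC45A3, these 21 included SLC2A12, SLC4A5, SLC3A2 and SLC19A1, with values below control. They also included SLC38A2, SLC39A1, SLC16A3 and SLC25A14, with values above control, and SLC6A9. The genes named are examples, and whether the motif went with the direction of change was not tested. The TGCGCNC form of the metal response motif was in 3 of 19 windows of metal carriers. It was in 26 of all 132, which is 19.7% beside 16.9% of all windows and 27.7% of those of tested genes. The amino acid response motif was in 0 of 19 windows of amino acid carriers, in 2 of all 132 or 1.52%, beside 3.19% of all windows and 1.24% of those of tested genes. The E-box was in 14 of the 132, or 10.6%, beside 6.49% of all windows and 9.08% of those of tested genes. A match says only that these letters are present. Members' windows had a median of 66.2% G and C, close to the 65.6% of tested genes.

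None of the tested neighbours of the 4 genes in the RefSeq gene order was called. SLC45A3 lies between ELK4 and NUCKS1, with 0.09 and -0.08 on the log2 scale per the authors' deposited table, while that of SLC45A3 was -1.48. SLC30A7 lies between EXTL2 and DPH5, at -0.05 and -0.08 on the log2 scale in the authors' deposited table. DPH5 overlaps SLC30A7 in the annotation, and the sources used here do not give whether reads were assigned by strand. SLC22A5 lies between SLC22A4, another organic cation transporter, and IRF1, with log2 fold changes of 0.32 and 0.13 per the authors' deposited table. The tested neighbours of SLC7A1 included UBL3, with -0.47 on the log2 scale (DESeq2 adjusted p 0.377) in the authors' deposited table. SLC46A3, the member nearest to SLC7A1 and separated from it by MTUS2, stood at 0.89 on the log2 scale in the authors' deposited table and was not called.

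**Figure D2:**
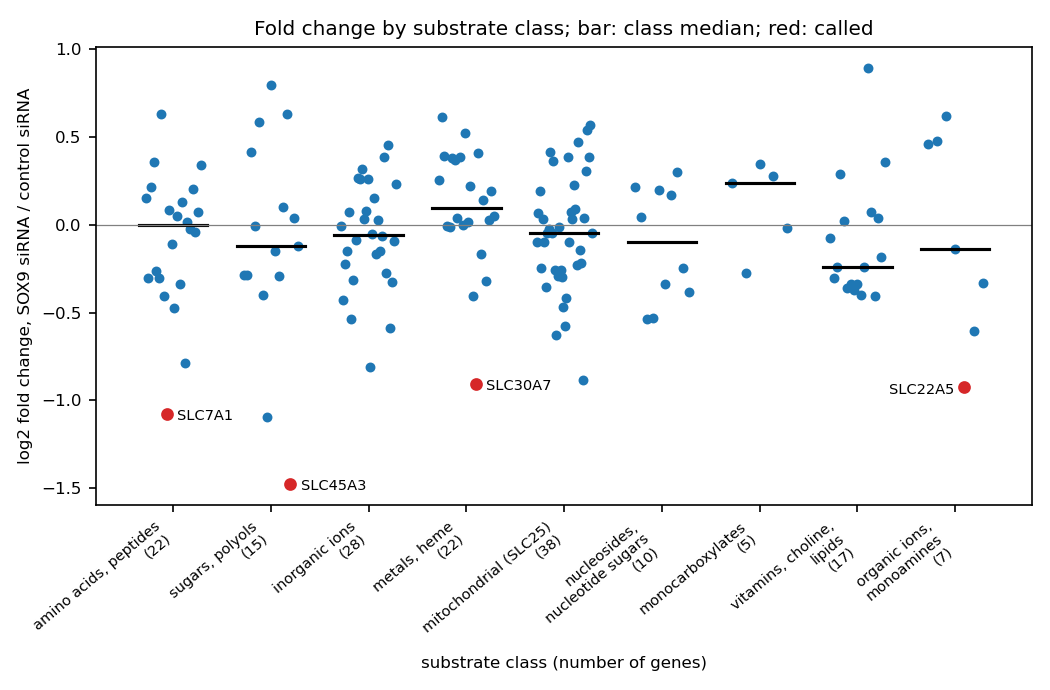
Log2 fold change of each of the 164 solute carriers by substrate class, with the number of genes in brackets and a bar at the class median (red: called). Class medians run from -0.24 for vitamin, choline and lipid carriers to 0.24 for monocarboxylate carriers, and the called genes are single members below the rest of their classes.

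Over the 164 members the median log2 fold change was -0.01, beside -0.03 over all tested genes with that mean count. Of the members 47.0% lay above control, beside 45.7% of those genes. The members' middle range, from the first to the third quartile, was -0.29 to 0.22, beside -0.20 to 0.14. Their median standard error was 0.21 beside 0.20. Substrate classes were assigned by family, with exceptions for single genes. Class medians were 0.00 for 22 amino acid and peptide carriers, -0.12 for 15 sugar carriers, -0.06 for 28 ion carriers, 0.10 for 22 metal carriers and -0.05 for 38 mitochondrial carriers. They were -0.10 for 10 carriers of nucleosides and nucleotide sugars, 0.24 for 5 monocarboxylate carriers, -0.24 for 17 carriers of vitamins, choline and lipids, and -0.14 for 7 carriers of organic ions and monoamines.

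Amino acid and peptide carriers had 0 rises and 1 fall, SLC7A1, among 22 members. The next lowest value was that of SLC1A4, a carrier of alanine, serine and cysteine, with 57.9% of control (95% interval 37.3% to 89.9%; DESeq2 adjusted p 0.248) in the authors' deposited table. SLC7A11, the cystine and glutamate exchanger that feeds glutathione synthesis, stood at 72.0% (53.1% to 97.6%) in the authors' deposited table. Its partner SLC3A2, the heavy chain that takes exchangers of the SLC7 family to the membrane, stood at 83.2% (67.0% to 103%), and SLC7A5, the leucine exchanger with the same heavy chain, at 81.2% (63.1% to 104%) in the authors' deposited table. The glutamine carrier SLC1A5 stood at 81.2% (64.5% to 102%) there. These carriers and the heavy chain had values below control, and none of them was called. The remaining SLC7 member, SLC7A6, went the other way and was not called either. By the authors' deposited DESeq2 values it lay at 0.08 on the log2 scale, with a standard error of 0.21. The SLC7 family thus had 3 members below control and 1 above. SLC7A5 has copies that could share its reads, SLC7A5P1 and SLC7A5P2, with mean counts of 113 and 606 beside 19260 for SLC7A5 in the authors' deposited table.

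The sodium-coupled SLC38 family had 5 of 6 members above control. SLC38A2 and SLC38A1, adjacent genes for carriers of glutamine and other neutral amino acids, stood at 111% (82.5% to 149%) and 116% (82.4% to 163%) in the authors' deposited table. SLC38A10 was at 128% (102% to 162%) with a DESeq2 adjusted p of 0.382 per the authors' deposited table. SLC38A9, an arginine sensor of the lysosome, was at 109% (83.6% to 143%) in the authors' deposited table. Among the SLC6 members, SLC6A6, the taurine carrier, was at 155% (115% to 208%; DESeq2 adjusted p 0.122) in the authors' deposited table, and SLC6A8, the creatine carrier, was at 75.5% (59.1% to 96.6%; adjusted p 0.328). None of these passed the threshold. ATF4, a transcription factor of amino acid carrier genes, had a log2 fold change of -0.50 with a DESeq2 adjusted p of 0.412 per the authors' deposited table, and its part in these values was not tested.

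Sugar and polyol carriers had 1 fall among 15 members, that of SLC45A3. Its relatives SLC45A1 and SLC45A4 stood at 155% (95% interval 89.3% to 268%) and 90.3% (70.2% to 116%) in the authors' deposited table. Among the facilitative glucose carriers of the SLC2 family the values lay on both sides of control. SLC2A12, a glucose carrier, stood at 46.9% (28.5% to 77.3%) in the authors' deposited table, with a DESeq2 adjusted p of 0.107 beside the standard error of 0.37. SLC2A8 and SLC2A6, which reside mainly on membranes inside the cell, stood at 174% (114% to 264%) and 150% (112% to 201%) in the authors' deposited table, with DESeq2 adjusted p-values of 0.195 and 0.162. SLC2A1, the common glucose importer, stood at 75.7% (48.4% to 118%) there. SLC2A9 had a mean count of 84.5 in the authors' deposited table, which kept it outside the members.

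Of the other sugar carriers, SLC50A1 was at 133% of control (95% interval 103% to 173%; DESeq2 adjusted p 0.361) in the authors' deposited table. SLC37A4, which takes glucose phosphate into the endoplasmic reticulum, was at 99.4% (80.1% to 123%) there, an interval that excludes a 1.5-fold change. The myo-inositol carriers SLC5A3 and SLC2A13 stood at 81.9% (62.7% to 107%) and 81.7% (62.6% to 106%) in the authors' deposited table. No sugar carrier other than SLC45A3 passed the threshold.

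**Figure D3:**
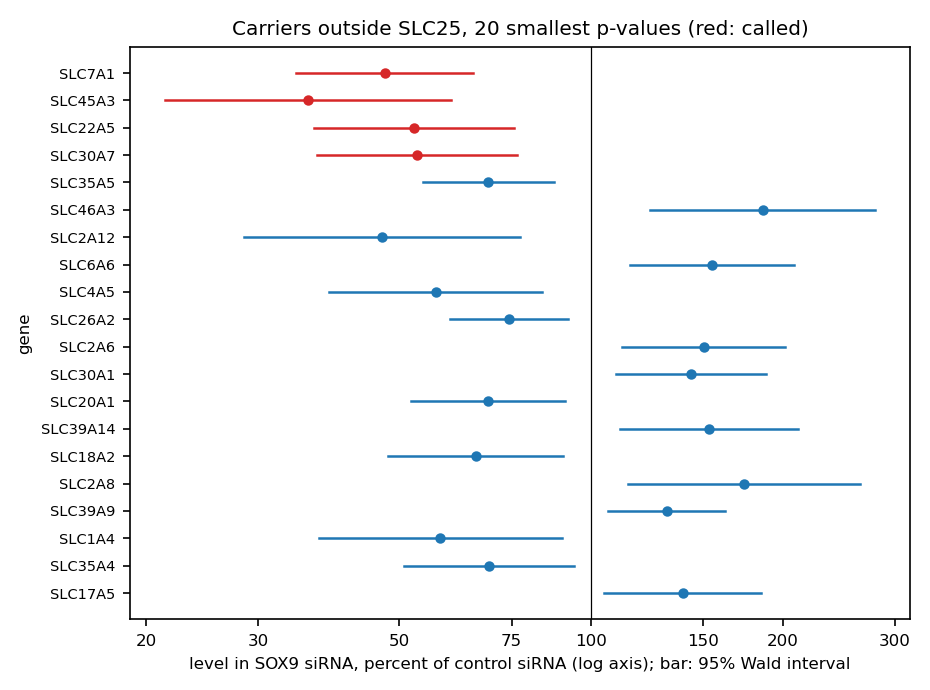
Level in SOX9 siRNA as a percentage of control (log axis) with 95% Wald intervals for the 20 solute carriers outside the SLC25 family with the smallest p-values, ordered by p (red: called). SLC7A1, SLC45A3, SLC22A5 and SLC30A7 at the top stand between 36.0% and 53.3%, and the 16 uncalled genes below them include values on both sides of 100%.

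Ion carriers had 0 rises and 0 falls among 28 members. The share of the class at an unadjusted p under 0.05 was 14.3%, near the 12.5% of tested genes with a mean count of at least 100. At that p the ion carriers had 0 higher and 4 lower members. These were SLC4A5, a sodium bicarbonate carrier, at 57.0% of control (95% interval 38.8% to 83.9%), SLC20A1, a phosphate importer, at 68.9% (52.0% to 91.1%), SLC26A2 at 74.3% (60.1% to 91.9%) and SLC12A8 at 66.5% (44.8% to 98.6%) in the authors' deposited table. Their DESeq2 adjusted p-values in the authors' deposited table were 0.128, 0.189, 0.156 and 0.412. SLC26A2 imports the sulfate that is added to cartilage proteoglycans. SLC12A8 was named after its value was seen.

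SLC26A2 and SLC20A1, whose intervals lay below control, had mean counts of 19319 and 5758 in the authors' deposited table. Several other ion carriers with high mean counts had intervals that include the control level. SLC4A2, a chloride and bicarbonate exchanger of the basolateral membrane, stood at 99.4% (80.0% to 123%), and the sodium bicarbonate carrier SLC4A7 at 90.2% (73.8% to 110%) in the authors' deposited table. SLC12A7, a potassium chloride carrier, was at 85.6% (64.6% to 114%) there, and SLC12A2, which brings sodium, potassium and chloride into secretory cells, at 80.4% (62.4% to 104%). Of the 6 sodium proton exchangers of the SLC9 family, 4 had intervals that exclude a 1.5-fold change. Of these, SLC9A7 stood at 105% (84.1% to 131%) in the authors' deposited table.

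SLC4A11, a membrane carrier of the bicarbonate family, could not be judged. It stood at 120% of control with an interval from 34.2% to 424%, because its standard error was 0.93 on the log2 scale in the authors' deposited table. The next largest standard error of a member was 0.42. Of the 7757 tested genes with a mean count of at least 1000, 11 had a standard error at least as large as that of SLC4A11, itself among them. Its mean count was 4016 in the authors' deposited table, and how its libraries varied cannot be seen without values per library.

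**Figure D4:**
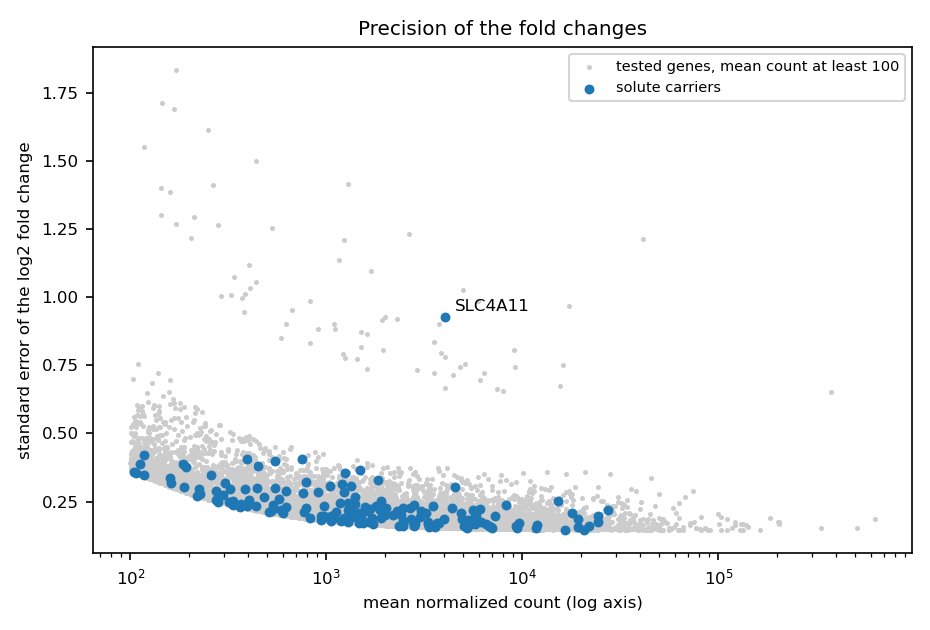
Standard error of the log2 fold change against mean normalized count (log axis) for the 11888 tested genes (grey) and the 164 solute carriers (blue). Errors shrink with mean count, and SLC4A11, at 0.93, lies far above the other members, which reach 0.42.

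Metal and heme carriers had 0 rises and 1 fall, SLC30A7, among 22 members. Zinc is carried into the cytosol by the SLC39 family and out of it, or into vesicles, by the SLC30 family. Of the 9 SLC39 members 8 were above control, with a median log2 fold change of 0.25. Of all tested genes with a mean count of at least 100, 45.7% were above control, and the difference was not tested. SLC39A14, which also carries iron and manganese, stood at 153% (95% interval 111% to 211%), SLC39A9 at 132% (107% to 162%) and SLC39A1 at 119% (97.0% to 147%) in the authors' deposited table. Their DESeq2 adjusted p-values in the authors' deposited table were 0.192, 0.211 and 0.566, so none passed. SLC39A6 stood at 99.7% (80.3% to 124%) there.

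The 6 SLC30 members ranged from the fall of SLC30A7 to SLC30A1, the zinc exporter of the plasma membrane, at 144% (110% to 188%; DESeq2 adjusted p 0.188) in the authors' deposited table. SLC30A5 and SLC30A6, which act together as a zinc carrier of the early secretory pathway, stood at 99.3% (78.4% to 126%) and 129% (102% to 163%) in the authors' deposited table. SLC30A4 and SLC30A9 stood at 102% and 103% there. The interval of SLC30A7, the lowest of these members, had an upper bound of 76.6% and did not reach the lower bound of 78.4% of SLC30A5. This pair was picked after the values were seen, and the difference between the genes was not tested.

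Outside the zinc families, 7 metal carriers had a median log2 fold change of 0.00. SLC11A2, the iron importer DMT1, stood at 99.9% (80.3% to 124%) in the authors' deposited table. SLC31A1, the copper importer, stood at 133% (95.4% to 185%) and SLC48A1, a heme carrier, at 89.0% (70.0% to 113%) there. The magnesium carriers SLC41A1 and SLC41A3 stood at 75.4% (56.2% to 101%) and 80.2% (62.7% to 102%) in the authors' deposited table, while SLC41A2 of the same family stood at 110.4% (72.1% to 169%) there, and none was called.

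**Figure D5:**
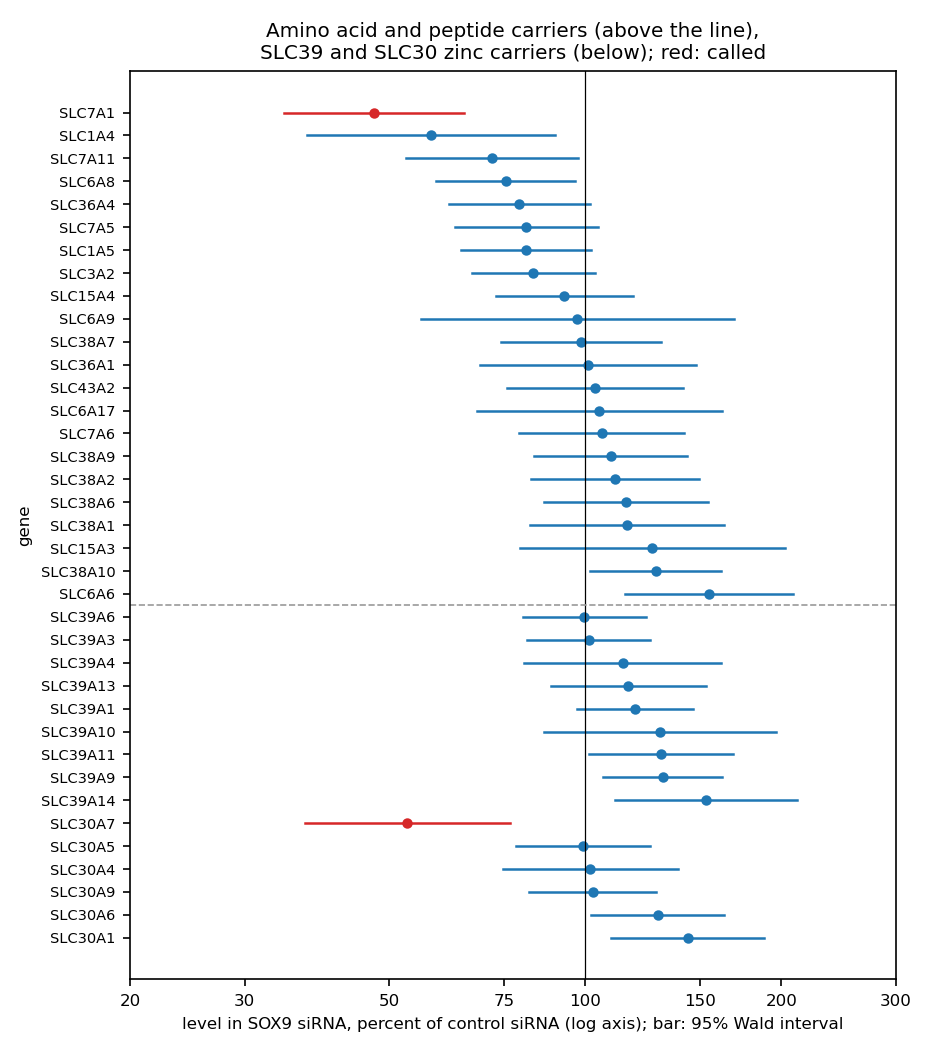
Level in SOX9 siRNA as a percentage of control (log axis) with 95% Wald intervals for the 22 amino acid and peptide carriers (above the dashed line) and for the 9 SLC39 and 6 SLC30 zinc carriers (below), each ordered by value. SLC7A1 at 47.4% and SLC30A7 at 53.3% are the called genes (red), and 8 of the 9 SLC39 genes lie above 100%.

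Mitochondrial carriers of the SLC25 family had 0 rises and 0 falls among 38 members, with 4 higher and 6 lower at an unadjusted p under 0.05. Together these were 26.3% of the class, beside 12.5% of tested genes with a mean count of at least 100, and the difference was not tested. Among the lower members were SLC25A17, a peroxisomal carrier of cofactors, at 67.1% (95% interval 50.6% to 89.0%), and SLC25A33, a pyrimidine nucleotide carrier, at 64.8% (47.7% to 88.1%) in the authors' deposited table. The DESeq2 adjusted p of both was 0.15 in the authors' deposited table. Further lower values at that unadjusted p were those of SLC25A44, a branched-chain amino acid carrier, at 72.2%, SLC25A38, a glycine carrier of heme synthesis, with an interval of 56.7% to 99.1%, and SLC25A39, a glutathione carrier, at 78.4% in the authors' deposited table. Higher values were those of SLC25A14 at 139%, SLC25A18, a glutamate carrier, at 146%, SLC25A46 of the outer membrane at 133% and SLC25A20, the carnitine and acylcarnitine carrier, at 131% there. These last 7 genes were named after their values were seen.

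The mitochondrial carriers with the most counts stayed near control in value. SLC25A3, the phosphate carrier, stood at 93.6% (95% interval 73.9% to 119%), SLC25A5, an ADP and ATP carrier, at 105% (85.7% to 128%), and SLC25A1, the citrate carrier, at 114% (92.5% to 141%) in the authors' deposited table. All 3 intervals exclude a 1.5-fold change. By substrate, the median log2 fold change was -0.07 for 10 carriers of nucleotides and phosphate, 0.08 for 4 of carboxylates, -0.13 for 8 of amino acids and -0.22 for 10 of cofactors and metals. Of the last group 7 were below control and 3 above. SLC25A5 has an antisense neighbour, SLC25A5-AS1, with a mean count of 147 beside 20702 for SLC25A5 in the authors' deposited table, and near-identical copies could share its reads, so its value is uncertain.

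Carriers of nucleosides and nucleotide sugars had 0 calls among 10. SLC35A5, of the Golgi family that supplies nucleotide sugars, stood at 68.9% (95% interval 54.4% to 87.4%) with a DESeq2 adjusted p of 0.0848 per the authors' deposited table, the smallest of any uncalled member. SLC35A4 of that family was at 69.1% (50.8% to 94.1%; adjusted p 0.286), and SLC35A2, the UDP-galactose carrier, at 103% (83.4% to 127%) in the authors' deposited table. The equilibrative nucleoside carrier SLC29A1, which takes up gemcitabine, a drug used in pancreatic cancer, stood at 116% (94.5% to 143%) with a DESeq2 adjusted p of 0.675 per the authors' deposited table. Its relative SLC29A2 was at 79.1% with a DESeq2 adjusted p of 0.463 per the authors' deposited table.

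Monocarboxylate carriers had 0 calls among 5. SLC16A3, the lactate exporter of glycolytic cells, stood at 118% (95% interval 90.0% to 154%), SLC16A1, which carries lactate in either direction, at 82.7% (66.0% to 104%), and SLC16A5 at 127% (92.7% to 175%) in the authors' deposited table. BSG, the chaperone that takes SLC16A1 and SLC16A3 to the membrane, had a log2 fold change of 0.07 with a DESeq2 adjusted p of 0.941 per the authors' deposited table.

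Carriers of vitamins, choline and lipids had 0 calls among 17, of which 11 were below control. SLC46A3, a lysosomal carrier, was the highest member of all at 186% (95% interval 124% to 279%), with a DESeq2 adjusted p of 0.104 per the authors' deposited table. Folate and thiamine carriers of the SLC19 family, SLC19A1 and SLC19A2, stood at 79.3% (61.0% to 103%) and 77.9% (57.8% to 105%), and the ascorbate carrier SLC23A2 at 77.3% (59.2% to 101%) in the authors' deposited table. SLC5A6, which imports biotin and pantothenate, was at 81.0% (62.8% to 105%), SLC10A3 at 84.7% (66.8% to 107%), and the riboflavin carrier SLC52A2 at 94.8% (76.9% to 117%) there.

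Among carriers of organic ions and monoamines SLC22A5 was the 1 call of 7. SLC18A2, which fills vesicles with monoamines, stood at 65.9% (95% interval 48.1% to 90.3%; DESeq2 adjusted p 0.194) in the authors' deposited table. SLC17A5, the sialic acid exporter of lysosomes, was at 139% (105% to 185%) there. SLC22A18, from an imprinted region, stood at 153% (94.7% to 249%) in the authors' deposited table, and it has an antisense partner by name, SLC22A18AS, which had a mean count of 76.1.

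The size of change that could be called differed between members. A gene was called at a Wald statistic of at least 3.32 in size. The observed fold change a member needed thus ranged from 1.40 for SLC25A5 to 8.43 for SLC4A11, with a median of 1.64. A true change of that size could still have been missed. For 52 of the 164 members, or 31.7%, the 95% interval lay wholly within 1.5-fold of control in either direction, beside 47.7% of the tested genes with a mean count of 100 or more and 40.3% of all tested genes. Among members with a mean count of at least 1000 it was 39 of 106, or 36.8%, beside 61.6% of such tested genes. These shares were not tested against each other. For the other uncalled members the interval reached beyond 1.5-fold, in some only on the lower or only on the higher side. A change of that size was not shown for them.

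Just inside the mean count minimum lay SLC25A53 at 105, SLC25A35 at 107 and SLC10A7 at 112, and just outside it SLC9A5 at 98.9, SLC23A3 at 90.8 and SLC2A9 at 84.5, in mean counts of the authors' deposited table. Their log2 fold changes in the authors' deposited table were -0.05, 0.57 and 0.36 inside and 0.59, 0.13 and 0.31 outside.

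Carriers that lack such a symbol were followed in separate lists. Genes with another letter in the SLC symbol, or an SLCO symbol, had 0 calls among 27 tested, with SLCO4A1, an organic anion carrier, and SLC35F2 as the most counted at log2 fold changes of 0.39 and 0.22 per the authors' deposited table. A list of 45 tested carriers and other membrane proteins under other names had 1 rise and 2 falls, beside 1.81% called of all 14063 tested genes. Not every gene of this list is an established carrier. FLVCR2 rose with a log2 fold change of 0.94 and a DESeq2 adjusted p of 0.0291 per the authors' deposited table. HIATL1, a membrane protein of the major facilitator superfamily, fell with a log2 fold change of -0.94 and a DESeq2 adjusted p of 0.00135, and TAPT1 fell with -0.83 and 0.0389, in the authors' deposited table. MTCH1 and MTCH2, insertion proteins of the outer mitochondrial membrane and the most counted of that list, had log2 fold changes of -0.24 and -0.25 per the authors' deposited table. Accessory proteins and regulators of carriers had 0 calls among 23 tested, and TFRC, the transferrin receptor, the most counted of them, had a log2 fold change of -0.42 with a DESeq2 adjusted p of 0.676 per the authors' deposited table.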

How the data were processed

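RNA was measured in 2 libraries per siRNA, and the series' deposited table is the authors' comparison of them. Per the submitters' processing notes, HISAT2 2.0.5, featureCounts and DESeq2 1.18.1 were used, and settings are not given in the sources used here. Builds hg19 and mm10 are listed with no role. Per the file headers, the deposited values are a mean normalized count, which is a signal averaged over libraries after size factor scaling, a log2 fold change with its standard error (log2), a Wald score, and a p-value and adjusted p-value. The authors adjusted 14063 genes; those left out had mean counts of at most 21.9. Depth per library is unknown.

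Intervals are 1.96 standard errors each way. Levels implied for the groups follow from the mean count, taken as the mean of 2 equal groups, and the fold change, and are approximate. Computations used Python 3.11.15 with pandas 2.3.3 and scipy 1.17.1, and the steps were tested on simulated data. Benjamini-Hochberg adjustment repeated here differed from the deposited values by at most 9.4e-15. Of the members, 162 symbols were current in the RefSeq table (GRCh38.p14) and 2 were older names.

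The members, lists and classes were chosen with earlier results of these data known. Named genes were all called members, the SOX9 target, in each class the 3 most counted members and the 3 uncalled members of smallest p, those next to the mean count minimum, and the called and the 2 most counted of the other lists. Further relatives of these were named after their values were seen. Alternatives were other mean count minimums, adjustments, thresholds, centring, a test against 1.5-fold, weighted means and other symbol forms. No set of genes was tested as a set. Some named genes that the rule covers are not reported here.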

Additional observations from a re-analysis of the deposited data

How the results depend on the processing

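The count of members that rose was 0 under each of the 10 alternatives. The count that fell, 4, was 2 when adjusted over every gene with a p-value, where SLC22A5 and SLC30A7 no longer passed, 1 at an adjusted p under 0.01, and 0 in the Wald test against a 1.5-fold change. It was 4 or 5 under the other 7 alternatives, 5 at an adjusted p under 0.1 and 5 with carriers under older symbols included, an alternative chosen after the data were seen. FLVCR2, which rose among the carriers under other names, was not among the older symbols included. The median of organic ion and monoamine carriers, -0.14, was 0.32 at a mean count minimum of 50, and the medians of the other classes moved by less than the members' median standard error. For class medians this near 0 no direction is claimed. No replicate could be left out and no other normalization tried, since the table has no values per library. No paired analysis was possible because the table holds only the authors' comparison, with no columns per library. Standard errors limit what can be seen, most of all for SLC4A11.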
